A study of Mus musculus with 6 samples.

Results

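The 5p arms of the mouse miRNAs numbered miR-6896 to miR-7094 were examined as one group, here called the 5p arms. The members were set by a rule on names alone, made with earlier results of these data known. It took every probe of the array for a miRNA in that number range, with any letter or copy number, whose name ends in -5p. There were 202 of them among the 1900 mouse miRNA probes of the array, each spotted in 2 places, beside 201 probes for the 3p arms of the same range and 1497 other mouse miRNA probes. RNA came from bone marrow-derived progenitor cells of adult male mice, with 3 samples from db/db mice, a type 2 diabetes model with 2 mutated copies of the leptin receptor gene, and 3 from db/+ control littermates, which carry 1 mutated copy. Marrow mononuclear cells of both groups had grown in endothelial growth medium for 4 days, were washed free of non-adherent cells, and grew for 3 more days. Whether the samples of a group came from separate mice is not stated, so the p-values below measure the spread between these samples, and the number of arrays limits every value.

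In single-colour scanner units, without background subtraction, the median signal of all mouse probes lay between 49.5 and 104.4 on the 6 arrays and that of the 4 blank spots between 39.1 and 97.2. All 5 stromal marker probes, such as miR-199a-3p, exceeded the blanks on all 6 arrays, as did 4 of 6 haematopoietic ones, miR-223-3p at 96.05 to 282 times the blank median among them. The endothelial probe miR-126a-3p read 15.6 to 35.7 times the blank median, while miR-126a-5p exceeded the blanks on 1 array, and of 3 erythroid probes only miR-451a exceeded them on all 6. None of 4 epithelial probes and none of 6 for liver, muscle, nerve or pancreas miRNAs exceeded them on all 6 arrays. On at least 3 arrays, the limit for testing a probe below, 2 of the epithelial probes did, miR-200b-3p and miR-200c-3p, and 2 of the other tissues' probes, miR-122-5p and miR-133a-3p. In these bulk samples, fewer cells of a type and less RNA per cell cannot be told apart.

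Most miRNAs are cut from long transcripts by the nuclear enzyme Drosha. A mirtron takes another route: a short intron is spliced out, its lariat is opened, and the linear intron folds into a hairpin that Dicer can cut. The hairpin then keeps the marks of an intron, a GU at the donor end and a pyrimidine-rich stretch closed by AG at the acceptor end, so the 5p arm pairs with pyrimidines and tends to be rich in purines. Of the 202 members, 178 matched a RefSeq mature miRNA of build GRCm38.p6 by name, each with the same sequence as the array's target column, and 176 of these lie within the coordinates of a protein-coding gene. The other 2 were miR-7094-1-5p and miR-7094b-2-5p. No share for miRNAs outside the range is set beside the 176, so this count does not mark the members as a class. The 178 members lie on 19 chromosomes, and exons and introns were not told apart because no exon coordinates were used. Strands were not compared, so a gene named with a miRNA here may lie on the opposite strand.

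Of 174 RefSeq hairpins of the members, 161 ended in AG, or 92.5%, against 69 of 823 hairpins outside the number range, or 8.38%. Both ends of an intron, GU first and AG last, were present in 20 member hairpins and in 9 of the others, and 26 member hairpins, or 14.9%, started with GU. Members were chosen by number, and splicing of their hairpins was not tested. The 5p arm started 5 bases into the hairpin in 136 cases and at its first base in 23. The hairpins of the 3 brightest members found in RefSeq are shown with the 5p arm in capitals. They show the purine-rich 5p arm facing pyrimidines and the closing ag of each hairpin.
Mir6931 (chr11:102999848-102999921, minus strand, within Dcakd): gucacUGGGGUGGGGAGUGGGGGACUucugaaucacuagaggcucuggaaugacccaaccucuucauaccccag
Mir7045 (chr6:125097024-125097086, plus strand, within Chd4, a chromatin remodeller of the NuRD complex): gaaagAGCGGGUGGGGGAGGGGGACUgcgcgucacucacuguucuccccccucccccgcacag
Mir6944 (chr13:55477681-55477776, minus strand, within Dbn1, the actin-binding protein drebrin): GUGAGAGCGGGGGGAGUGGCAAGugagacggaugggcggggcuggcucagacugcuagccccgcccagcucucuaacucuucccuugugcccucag

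Mature sequences are given for the members that the results turn on, with the seed, bases 2 to 8, in capitals. The first 5 are among the brightest members found in RefSeq after miR-6931-5p, miR-7045-5p and miR-6944-5p. The next 6 are those found in RefSeq among the 7 members with an unadjusted p under 0.05 between the groups, and the last 2 the lowest share of G.
miR-7082-5p (chr9:21075563-21075583, minus strand, within Raver1): uACGGGCAggaggaggggagg
miR-7085-5p (chr9:44400428-44400449, plus strand, within Slc37a4, the glucose-6-phosphate transporter): cAGUGGGGgcaggccagcagga
miR-6937-5p (chr12:28679325-28679348, plus strand, within Adi1): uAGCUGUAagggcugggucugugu
miR-7028-5p (chr5:114719515-114719537, plus strand, within Tchp): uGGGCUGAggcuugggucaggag
miR-6968-5p (chr17:26935472-26935493, plus strand, within Phf1): aGGGGGCGagggggcccugugg
miR-7056-5p (chr7:47083203-47083224, minus strand, within Ptpn5, a tyrosine phosphatase of neurons): uGUGGAGGaggacagagagguu
miR-7034-5p (chr5:135735864-135735884, minus strand, within Tmem120a): uCCGGGAGggauggaugugcu
miR-7036b-5p (chr5:34574151-34574172, plus strand, within Add1): aCGCGGGGuucucuguggaagc
miR-7024-5p (chr5:33898946-33898966, minus strand, within Nelfa, a subunit of the negative elongation factor): uUGGGGGAuggguugcuuggc
miR-6930-5p (chr11:102404960-102404982, minus strand, within Slc25a39): aAGGGGGUgcuugagagguuugg
miR-6945-5p (chr13:55507667-55507688, minus strand, within Pdlim7): uCCUGGGAggggcagccccugg
miR-7092-5p (chrX:74317367-74317389, plus strand, within Fam50a): aAAGGCAAacucacagaaucauu
miR-6902-5p (chr1:93346097-93346118, plus strand, within Ppp1r7): uUCCUCACauugucacaugaag

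G was the leading base of the 5p arms. Over all members it made up 44.2% of the bases, A 23.2%, U 18.4% and C 14.2%, while the 3p arms of the same range held 15.7% G, 39.8% C and 31.8% U, and the other mouse miRNAs 27.1% G. The range among members was wide, between 13.0% in miR-7092-5p and 66.7% in miR-6931-5p and miR-7045-5p, with a median of 43.7%. A run of at least 4 G, searched as GGGG on the miRNA strand alone, stood in 76 members, or 37.6%, in 2 of the 3p arms and in 127 of the other mouse miRNAs, or 8.48%. Members were 18 to 26 bases long, with a median of 22. The acceptor end lay in the other arm: 17 of the 202 5p arms ended in AG, or 8.42%, against 158 of the 201 3p arms, or 78.6%, and 121 of the 1497 other mouse miRNAs, or 8.08%. GU was the start of 18 of the 202 5p arms, against 2 of the 201 3p arms and 50 of the 1497 other mouse miRNAs.

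A probe counted as above the blanks on an array if the mean of its 2 spots exceeded the 95th percentile of that array's 4 blank spots. The 5p arms exceeded them more often than the other mouse miRNAs on each of the 6 arrays. All 202 did so on db/db replicate 1, 121 on db/db replicate 2 and 111 on db/db replicate 3, against 135, 134 and 192 on db/+ replicates 1, 2 and 3. On db/db replicate 1 and db/+ replicate 3, whose blanks had the lowest medians, at 44.03 and 39.1, nearly all probes of any kind passed. As shares, 5p arms above the blanks made up 100%, 59.9% and 54.95% on the db/db arrays and 66.8%, 66.3% and 95.05% on the db/+ arrays. For the 3p arms the shares were 100%, 34.3% and 32.3% on the db/db arrays and 45.8%, 63.2% and 90.5% on the db/+ arrays, and for the other mouse miRNAs 97.0%, 44.2% and 38.4% on the db/db arrays and 49.7%, 57.7% and 88.6% on the db/+ arrays. These shares stand side by side in the plot of detection by array.

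**Figure D1:**
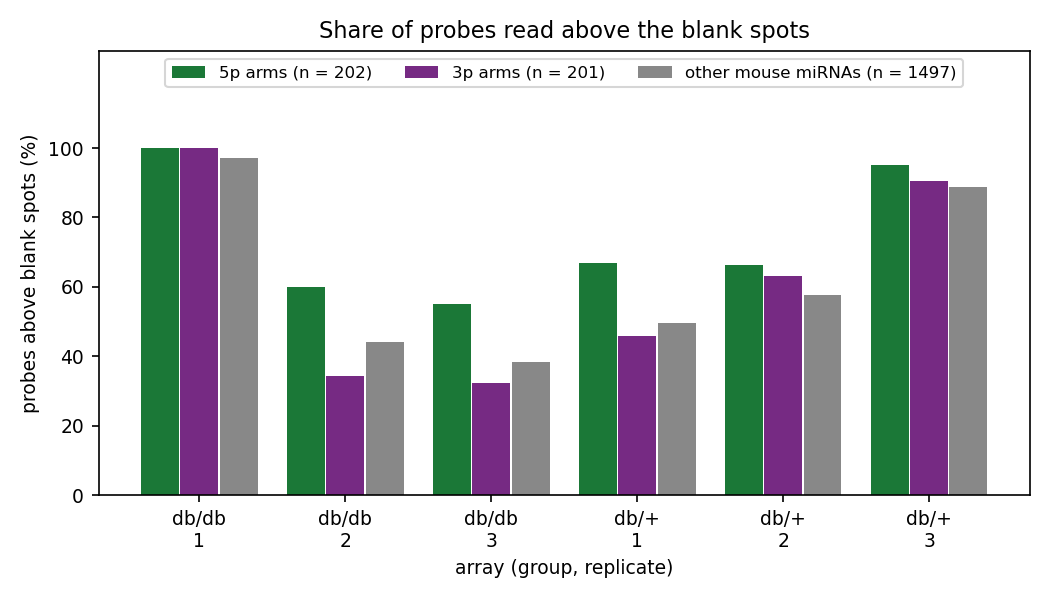
Share of probes above the blank spots (y axis, percent) on each of the 3 db/db and 3 db/+ arrays, for the 202 5p arms, the 201 3p arms of the same number range and the 1497 other mouse miRNA probes. The 5p bar is higher than the bar for other miRNAs on all 6 arrays, and level with the 3p bar at 100% on db/db replicate 1.

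The within-array difference between 5p arms and other mouse miRNAs averaged 11.2 percentage points and lay between 3.01 and 17.1 points. Its exact two-sided sign-flip permutation p was 0.031, the smallest that 6 arrays can give. Every array carries the same probes, so the sign-flip p-values here measure how steadily a difference repeats over arrays. They do not measure whether the 5p arms differ as a class of miRNAs. When the other probes were weighted to the members' share of G in 3 bins, a setting chosen after seeing the data, the difference was -2.96 points with an exact permutation p of 0.125. The bins match G only coarsely: the lowest ran from 0% to 40.9% G in 1317 other probes and from 13.0% to 40.9% in 77 members. With signals over 2 times the blank median as the threshold it was 2.51 points unweighted, with an exact permutation p of 0.188, and -11.4 points weighted, lower for the 5p arms on all 6 arrays, with an exact permutation p of 0.031. The widest unweighted gap was on db/db replicate 1, with 43.6% of the 5p arms against 31.3% of the other miRNAs. On db/+ replicates 2 and 3 the 5p arms were lower, at 27.7% against 27.8% and 21.3% against 21.9%. On all 6 arrays, 18.3% of the 5p arms and 18.9% of the other miRNAs exceeded 2 times the blank median. Against the 3p arms the 5p arms were 12.8 points higher, with an exact permutation p of 0.0625. The difference was above 0 on 5 of 6 arrays and 0 on db/db replicate 1, where every probe of both arms passed. At 2 times the blank median, where no array was full, it was 15.9 points and above 0 on all 6, with an exact permutation p of 0.031.

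Between the groups, 71.6% ± 24.7 of the 5p arms exceeded the blanks in db/db cells and 76.1% ± 16.4 in db/+ cells (SD, n = 3 each). The difference of -4.46 points gave p = 0.60 in an exact two-sided permutation test over arrays, whose smallest possible p is 0.10. Its direction turned to 1.40, 3.88 and 5.03 points without db/db replicate 2, db/db replicate 3 or db/+ replicate 3, and it was -18.6 points without db/db replicate 1. At 1.5 and 2 times the blank median the difference was 9.74 and 6.11 points. The difference was not larger than the spread between arrays.

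Over all arrays, 149 of the 202 members exceeded the blanks on at least 3 and were tested between the groups, 101 did so on all 6, and the remaining 53 on 1 or 2. No member stayed below the blanks throughout, since all passed on db/db replicate 1. Both arms of a hairpin were on the array for 200 hairpins. Among these, 103 had both arms tested, 46 the 5p arm alone, 27 the 3p arm alone and 24 neither. At 2 times the blank median on all 6 arrays, 36 hairpins had the 5p arm alone above, 8 the 3p arm alone and 1 both.

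Signal was concentrated in few members. On every array 10 members read over 10 times the blank median, 3 had their lowest reading between 5 and 10 times, 24 between 2 and 5 times, 78 between 1 and 2 times, and 87 at or under the blank median on at least 1 array. The 10 members made up 4.95% of the 5p arms, against 0 of the 201 3p arms and 109 of the other mouse miRNAs, or 7.28%. Signals of different probes also depend on the probe, so the order of brightness is not an order of miRNA amounts.

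The brightest member was miR-6931-5p, with scanner signals of 4923, 6587 and 4158 on db/db replicates 1, 2 and 3, against 7805, 7857 and 2729 on db/+ replicates 1, 2 and 3. Next came miR-7045-5p, with 4083, 6151 and 3443 on db/db replicates 1, 2 and 3, against 7292, 8048 and 2615 on db/+ replicates 1, 2 and 3. For both, db/+ replicates 1 and 2 were the highest and db/+ replicate 3 the lowest, so the groups overlapped. These 2 members also had the highest share of G. After normalization their log2 differences, db/db minus db/+, were -0.07 (standard error 0.21) and -0.27 (standard error 0.22). In limma, a linear model with moderated variances fitted over all tested probes, the Benjamini-Hochberg adjusted p was 0.96 and 0.89.

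The probe for miR-6944-5p read 2813, 3003 and 1876 on db/db replicates 1, 2 and 3, against 6394, 4536 and 1610.1 on db/+ replicates 1, 2 and 3. On the normalized log2 scale it had 11.93, 11.16 and 10.67 on the db/db arrays, against 11.90, 11.89 and 11.70 on the db/+ arrays, and the spread was wider in db/db cells, where replicate 1 lay level with the highest db/+ array. The probe for miR-6937-5p, which holds 41.7% G and was the only one of the 10 under 50% G, read 1175, 2270.4 and 2259.8 on db/db replicates 1, 2 and 3, against 3747, 2947 and 979.5 on db/+ replicates 1, 2 and 3. Its normalized log2 values were 10.80, 10.79 and 11.03 on the db/db arrays, against 11.08, 11.09 and 11.10 on the db/+ arrays. The groups did not overlap after normalization, and the difference was -0.22 (standard error 0.12), but its limma adjusted p was 0.89.

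The miR-7028-5p probe departed from the order of arrays seen in the other bright members, with 2518, 1514 and 3045 on db/db replicates 1, 2 and 3, against 1683, 1345 and 1100.2 on db/+ replicates 1, 2 and 3. Here db/db replicates 3 and 1 were highest. After normalization db/+ replicate 3 stood with them: the log2 values were 11.81, 10.29 and 11.48 on the db/db arrays, against 10.01, 9.997 and 11.28 on the db/+ arrays. The difference of 0.76 carried the largest standard error of any tested member, 0.49, and its limma adjusted p was 0.89. The remaining bright members miR-7082-5p, miR-7085-5p, miR-7047-5p, miR-6981-5p, miR-6968-5p, miR-7044-5p and miR-6954-5p had log2 differences of -0.04, -0.20, -0.03, 0.12, 0.27, 0.06 and -0.59. Over the 12 brightest, 4 differences were above 0 and 8 below, with a median of -0.05. The db/+ array replicate 3 gave the lowest scanner signal for each of the 12, as the plot of the brightest 5p arms shows.

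**Figure D2:**
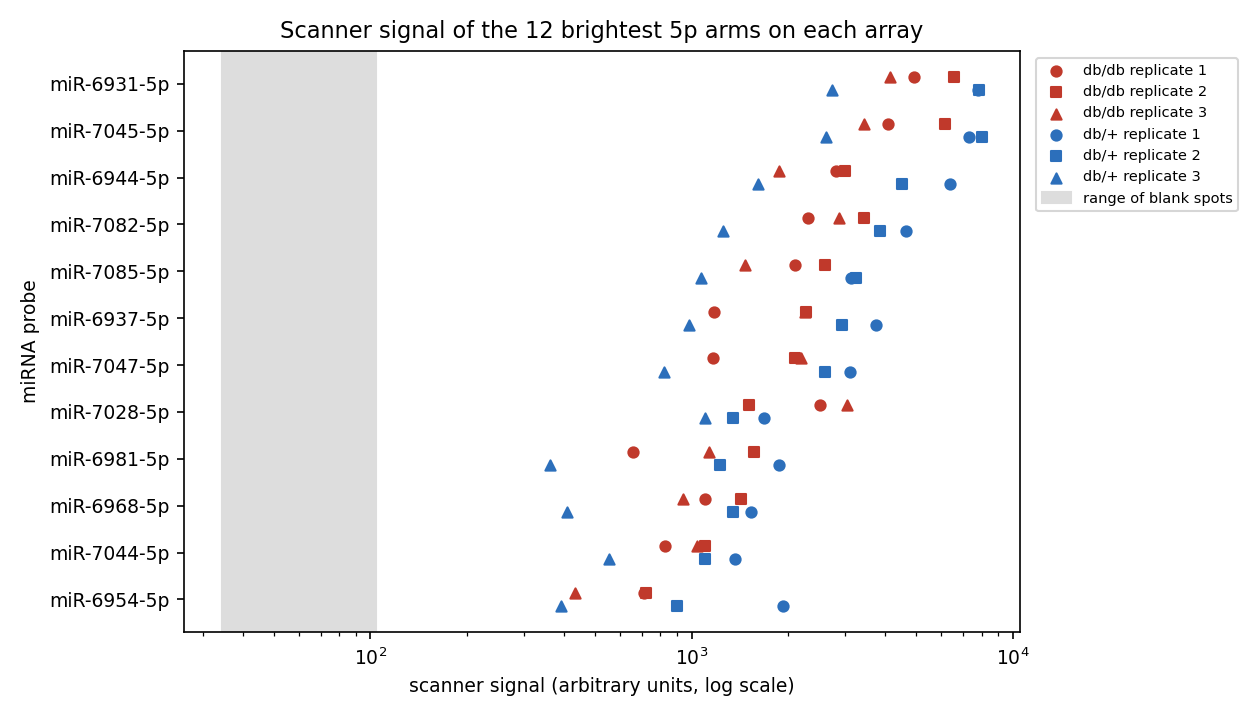
Scanner signal (x axis, arbitrary units, log scale) of the 12 brightest 5p arms on the 3 db/db arrays (red, upper row of each probe) and the 3 db/+ arrays (blue, lower row), with the range of all blank spots shaded. All points lie above the blanks, db/+ replicate 3 is the lowest point of each probe, and the groups overlap.

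Members with more G read higher. Across the 202 members, Spearman's rho between the share of G and the scanner signal lay between 0.511 and 0.617 on the 6 arrays, a description over probes that share array, dye and hybridisation. Over the 149 tested members it lay between 0.423 and 0.545. Over all 202 members the share of U went the other way, with rho between -0.435 and -0.322. For C, rho lay between -0.205 and -0.129. Over the 149 tested members rho lay between -0.209 and -0.058 for U and between -0.402 and -0.305 for C. Length was nearly unrelated over all members, with rho between -0.064 and -0.028. Among the other mouse miRNAs rho for G lay between 0.153 and 0.227, and among the 3p arms between -0.147 and 0.00085.

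In 3 bins of the share of G, 40 of 77 members with up to 40.9% G were tested, or 51.9%, 50 of 60 members between 41.7% and 47.8%, or 83.3%, and 59 of 65 members with at least 50% G, or 90.8%. Other mouse miRNAs in the same bins gave 736 of 1317, or 55.9%, 94 of 104, or 90.4%, and 71 of 76, or 93.4%. Of the 10 members over 10 times the blank median on all arrays, 9 were in the bin with most G. Of the 109 other mouse miRNAs over it, 17 were in that bin and 87 in the bin with least G. The members at the low end, miR-7092-5p and miR-6902-5p, had the sequences with least G shown above and exceeded the blanks only on db/db replicate 1, at 56.2 and 51.8. Members with a run of 4 G exceeded 2 times the blank median on all arrays in 22 of 76 cases, or 28.9%, against 15 of 126 without one, or 11.9%. Other mouse miRNAs did so in 41 of 127 cases with a run, or 32.3%, against 242 of 1370 without one, or 17.7%. The plot of G share sets each member's signal beside these counts.

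**Figure D3:**
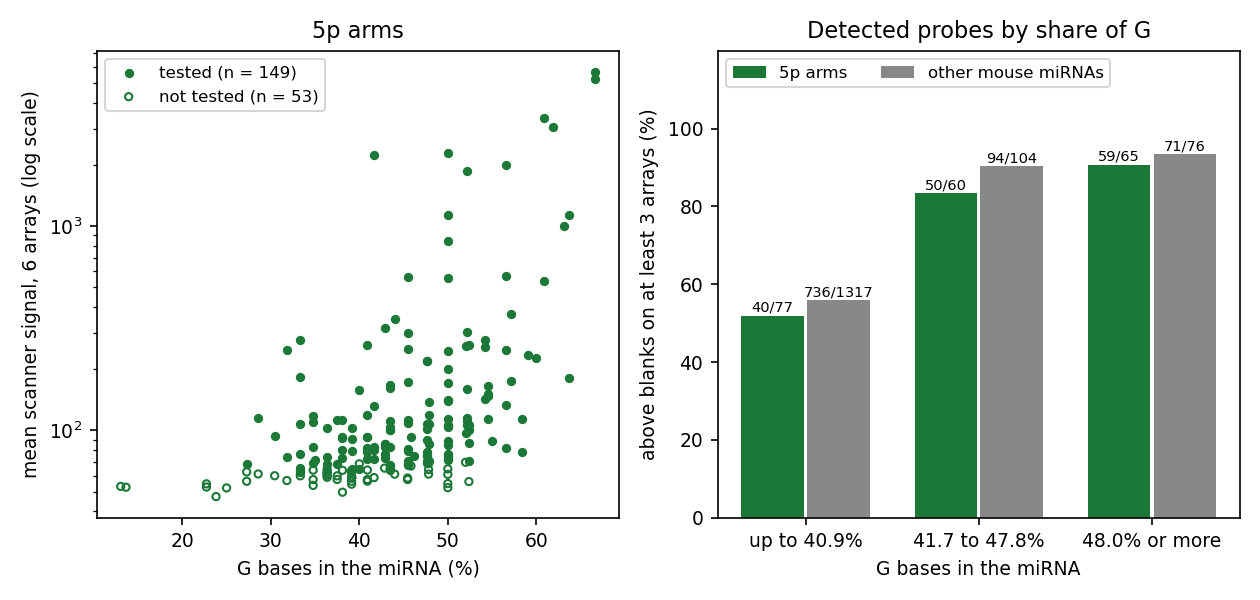
Left, the share of G in each 5p arm (x axis, percent) against its mean scanner signal over 6 arrays (y axis, log scale), filled where the member was tested and open where not. Right, the share of probes above the blanks on at least 3 arrays (y axis, percent, with counts) by share of G, for 5p arms (green) and other mouse miRNAs (grey). Both sets of bars climb with G, and in each bin the 5p bar, at 51.9%, 83.3% and 90.8%, is the lower of the pair.

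No 5p arm passed the test between db/db and db/+ cells: 0 of 149 had a limma adjusted p under 0.05, where 0% of all 1181 tested probes passed, and the smallest adjusted p of a member was 0.89. Before adjustment, 7 members lay under 0.05, or 4.7%, where 5% of all tested probes lay. Of these, 6 were higher in db/db cells, or 4.03%, against 2.88% of all tested probes, and 1 was lower, or 0.671%, against 2.12%. The groups did not overlap for 11 members, 8 higher and 3 lower in db/db cells, or 7.38%, where 9.65% of all tested probes did not overlap, 4.06% higher and 5.59% lower. In total, members lay close to the background, and in the lower direction both shares were under it.

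Log2 differences of the tested members ranged between -0.64 and 1.00, with a median of 0.05, where all tested probes had a median of -0.02. They were above 0 for 86 members and below 0 for 63, or 57.7% above, where 45.6% of all tested probes were above 0. The 3p arms had a median of 0.03, with 73 of 131 above 0. Scaling each array to the 75th percentile of the probes above the blanks on all arrays moved the median of all tested probes to -0.11 and that of the members to -0.03. Standard errors of the members lay between 0.11 and 0.49, with a median of 0.16. An offset of 50 was added before taking logs, so differences of members close to the blanks are compressed and do not bound the change in miRNA level. The differences are drawn in order of size in the plot of all tested 5p arms.

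**Figure D4:**
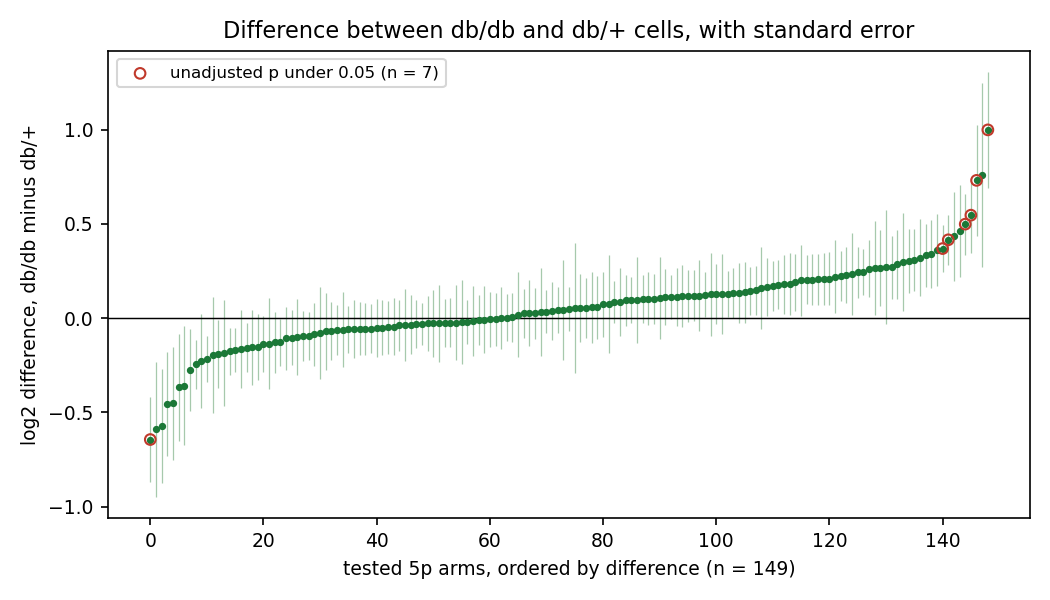
Log2 difference, db/db minus db/+ (y axis), of the 149 tested 5p arms in order of size (x axis), with the standard error of each as a bar. Most points lie within 0.5 of 0, and red circles mark the 7 members with an unadjusted p under 0.05, none of which passed after adjustment.

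The member with the smallest p was miR-7056-5p, with scanner signals of 615, 503 and 1045 on db/db replicates 1, 2 and 3, against 478, 544 and 135 on db/+ replicates 1, 2 and 3. Its normalized log2 values were 9.73, 8.74 and 9.81 on the db/db arrays, against 8.26, 8.75 and 8.27 on the db/+ arrays. Replicates 1 and 3 of db/db were high, and db/db replicate 2 lay level with the highest db/+ array, so the groups touched. The group means were 9.43 ± 0.59 in db/db cells and 8.43 ± 0.28 in db/+ cells (SD, n = 3 each), which differed by 1.00 (standard error 0.31), with a limma p of 0.014 before adjustment and 0.89 after it. Without db/db replicate 2 the difference was 1.34 and the adjusted p 0.093, the smallest of any member in any setting tried.

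The next members among the higher readings were dim. The miR-7034-5p probe had 178, 268 and 306 on db/db replicates 1, 2 and 3, against 287, 184 and 91.8 on db/+ replicates 1, 2 and 3, and after normalization 7.88, 7.98 and 8.06 on the db/db arrays, against 7.57, 7.40 and 7.70 on the db/+ arrays. The groups did not overlap, and differed by 0.42 on the log2 scale (standard error 0.13), at a limma adjusted p of 0.89. The miR-6930-5p probe had normalized log2 values of 7.85, 6.60 and 7.28 on the db/db arrays, against 6.56, 6.46 and 6.52 on the db/+ arrays, a log2 difference of 0.73. Its db/db replicate 2 stood just above the db/+ arrays and replicate 1 highest of all, and none of these members passed the test. The probes for miR-7036b-5p, miR-6972-5p, miR-7024-5p, miR-6974-5p and miR-7029-5p had log2 differences of 0.50, 0.37, 0.55, 0.33 and 0.24, each with a limma adjusted p of 0.89. All 5 had their lowest reading within 1.5 times the blank median, and the groups overlapped only for miR-6974-5p.

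Among the lower readings, miR-6945-5p had scanner signals of 387, 452 and 344 on db/db replicates 1, 2 and 3, against 1158, 817 and 214 on db/+ replicates 1, 2 and 3. Its normalized log2 values were 8.98, 8.65 and 8.27 on the db/db arrays, against 9.54, 9.31 and 8.97 on the db/+ arrays, and db/db replicate 1 lay just above db/+ replicate 3. The difference was -0.64 (standard error 0.23), with a limma p of 0.025 before adjustment and 0.89 after it. The miR-6954-5p and miR-6944-5p probes, both bright, had -0.59 and -0.57, and in each the groups overlapped through db/db replicate 1. Without that array they had -0.94 and -0.90, without db/db replicate 3 -0.26 and -0.29, and miR-6954-5p had -0.39 without db/+ replicate 1. The probes for miR-6995-5p, miR-6908-5p, miR-6999-5p and miR-6994-5p had -0.46, -0.45, -0.25 and -0.17, and none passed. In miR-6908-5p, db/+ replicate 1 stood high, at 8.71 against 7.53 and 7.79 on the other db/+ arrays. The plot of the smallest p values shows all 16 by array.

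**Figure D5:**
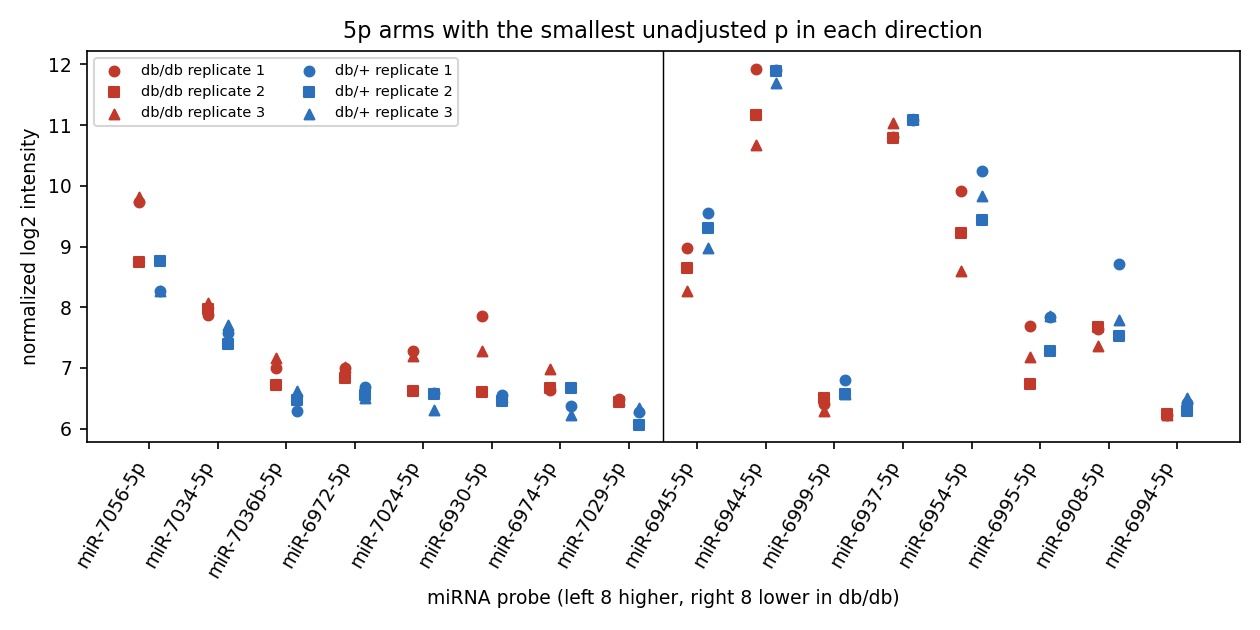
Normalized log2 intensity (y axis) of the 8 5p arms with the smallest unadjusted p among those higher in db/db cells (left) and the 8 among those lower (right), with db/db arrays in red to the left of db/+ arrays in blue and a marker shape for each replicate. Some pairs of groups separate by small gaps and others overlap, and the db/db arrays of miR-7056-5p and miR-6930-5p spread most among the left 8.

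Brightness of a spike control moved with some of these values. The arrays fell into 3 with a bright PUC2PM-20B control, db/db replicate 2 and db/+ replicates 1 and 2, between 34770.1 and 38814, and 3 with a dim one, db/db replicates 1 and 3 and db/+ replicate 3, between 13287 and 19043. Among the bright arrays the median log2 difference of the 149 members was -0.01, and among the dim ones 0.11, each with an arm of 1 array, where all tested probes had -0.02 and -0.0013. The miR-7056-5p difference was 0.23 among the bright arrays and 1.5 among the dim ones, and that of miR-6930-5p 0.09 and 1.05. For miR-7024-5p it was 0.06 and 0.92, for miR-7034-5p 0.49 and 0.27, and for miR-6945-5p -0.78 and -0.35. Of the 12 brightest members, only miR-7028-5p had all bright arrays below the dim ones, and none had them all above. The miR-7028-5p difference was 0.28 among the bright arrays and 0.36 among the dim ones, against 0.76 over all arrays. The bright arrays all lay below the dim ones for 15 members, or 10.1%, where 7.71% of all tested probes did so, and above them for 8, or 5.37%, where 12.9% did. With the set as a block 0 members passed. The part of the spike split in these values was not tested.

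Seeds were mostly particular to 1 member: the 202 members held 179 different seeds, of which 161 occurred in 1 member, 14 in 2, 3 in 3 and 1 in 4. A seed also found on a probe outside the range was held by 50 members. The seed GUGGGAG was shared by miR-6922-5p, miR-6993-5p, miR-7008-5p and miR-6935-5p. The seed GGGCUGA was shared by miR-7028-5p, miR-7079-5p and miR-6911-5p. The sequences of those in RefSeq show how far members of one seed differ beyond it.
miR-6922-5p (chr11:60202300-60202322, minus strand, within Srebf1, a regulator of lipid synthesis): uGUGGGAGgggacuguagagagg
miR-6993-5p (chr19:10191380-10191402, plus strand, within Fads1, a fatty acid desaturase): aGUGGGAGaaacgggugucuguc
miR-7008-5p (chr3:31038971-31038994, plus strand, within Prkci): uGUGGGAGaugccaggagccguac
miR-7079-5p (chr8:123104980-123105001, plus strand, within Rpl13, a ribosomal protein): aGGGCUGAggcagugaguccug
miR-6911-5p (chr10:80278169-80278191, plus strand, within Dazap1): uGGGCUGAgugggucuguggcau

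In some seed groups 1 member stood apart in signal. The miR-6922-5p probe read 4.39 to 14.2 times the blank median, miR-6993-5p 0.97 to 2.86 times, miR-7008-5p 0.936 to 1.67 times and miR-6935-5p 0.828 to 1.66 times. Their log2 differences were -0.36, 0.04, -0.06 and -0.06. In the GGGCUGA group miR-7028-5p was among the brightest members, while miR-7079-5p and miR-6911-5p read at most 1.57 and 1.76 times the blank median, with log2 differences of 0.21 and 0.10. The other 2 groups were GGGGAGG with miR-7075-5p, miR-7030-5p and miR-7076-5p, and UGGGGGA with miR-7024-5p, miR-7023-5p and miR-6941-5p. All 6 differences were above 0, at 0.36, 0.23 and 0.16, and 0.55, 0.13 and 0.12. Differences were above 0 for 57.7% of all tested members and 45.6% of all tested probes. In the same order, the 6 probes read at most 4.53, 1.59 and 1.73, and 2.80, 1.85 and 1.90 times the blank median. None of the 6 passed.

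Mirtrons outside the range, known from earlier work as miR-877, miR-702 and miR-1224, had the same contrast in G between arms. Their 5p probes held 55%, 57.1% and 61.9% G and their 3p probes 4.55%, 9.09% and 4.76%. The miR-1224-5p probe, within Vwa5b2, read 3038, 6597 and 3238 on db/db replicates 1, 2 and 3, against 9136, 5659 and 2147 on db/+ replicates 1, 2 and 3, while miR-1224-3p read 71, 65.4 and 96.1 on db/db replicates 1, 2 and 3, against 130.2, 116 and 53.7 on db/+ replicates 1, 2 and 3. The arms of the others lay closer in signal. Over the 6 arrays, miR-877-5p read 69.5 to 217.7 and miR-877-3p 50.9 to 109. The miR-702-5p probe read 169 to 387 and miR-702-3p 45.3 to 153. The log2 differences were -0.20 for miR-1224-5p, -0.09 for miR-877-5p and 0.19 for miR-702-5p. The 3p probes had -0.10 for miR-1224-3p, 0.18 for miR-877-3p and 0.09 for miR-702-3p. None passed. The brightest 3p arms of the range were miR-7058-3p, miR-6896-3p, miR-6929-3p and miR-7027-3p, with log2 differences of -0.01, 0.35, -0.02 and 0.22. The sequences of miR-1224-5p and miR-7058-3p, from RefSeq with the seed in capitals, show the purine-rich and the pyrimidine-rich arm.
miR-1224-5p (chr16:20604452-20604472, plus strand): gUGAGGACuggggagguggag
miR-7058-3p (chr7:126367971-126367992, minus strand, within Lat, an adaptor of T cell receptor signalling): cUCGUUCCuuccuuucuuccag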

How the data were processed

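Total RNA, 1 µg per sample, was labelled with Cy5 and hybridised to 1 array per sample by a service provider, per the labels' protocols. The deposited scanner files give a median intensity per spot on a linear scale and, per the file headers, hold no background column; the scanner and its software are not given in the sources used here. The authors' deposited value table holds intensities that, judged from their values beside the scanner signals, had a background subtracted and were scaled, by steps not given in the sources used here, and it served as an alternative.

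Spot intensities were corrected with normexp (offset 50, all spots), quantile-normalized over the mouse probes, log2-transformed and averaged over the 2 spots of each probe, with limma 3.58.1 in R 4.3.3. Probes above the 95th percentile of the 4 blank spots on at least 3 of 6 arrays were tested with lmFit and eBayes, and p-values were adjusted over all 1181 tested probes by Benjamini-Hochberg. No 2 arrays were identical. Shares were compared with exact permutation tests over arrays, all of which carry the same probes. Only the limma fit and its filter were tested on simulated arrays. The simulation gave every probe the same spread between samples and the mouse probes no brightness effect of arrays. The permutation tests and the weighting by G were not simulated. Named members were the 12 brightest, the 8 with the smallest p per direction, those with extreme shares of G, up to 3 of each seed with at least 3 members, and those with the largest differences, with the 4 brightest 3p arms and 3 other mirtrons. Members and lists were chosen with earlier results of these data known.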

Additional observations from a re-analysis of the deposited data

How the results depend on the processing

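No member passed in any of the 21 other settings, which covered scaling, background, the probe filter, the variance model, blocks, the authors' own values and leaving out each array; 0 to 10 members had an unadjusted p under 0.05, and the smallest adjusted p lay between 0.093 and 1.00. The member median lay between -0.03 and 0.15, above that of all tested probes in all 21 settings, by 0.03 to 0.21. With the blank median subtracted the median of all tested probes was -0.11. Signal near the blanks limits most members.

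Deviations of same-numbered arrays were nearly unrelated, with correlations of -0.04, -0.0029 and 0.04. Other matches were further from 0. Replicates 1, 2 and 3 of db/db correlated at 0.37, 0.33 and 0.28 with db/+ replicates 3, 1 and 2, and at -0.36, -0.32 and -0.30 with db/+ replicates 2, 3 and 1. Deviations from a group's mean sum to 0, so the negative correlations largely follow from the others. These values cannot show whether samples were processed in pairs. With the replicate number as a block 0 members passed, with 9 at an unadjusted p under 0.05 against 7 without it. The detection difference between the groups is -4.46 points with or without this block by arithmetic, because each number occurs once per group.

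That difference turned to 9.74 and 6.11 points with thresholds of 1.5 and 2 times the blank median, and lay between -18.6 and 5.03 points with an array left out. The difference between 5p and 3p arms reached an exact p of 0.031 at 1.5 times and 2 times the blank median, with 17.9 and 15.9 points, and with both spots required, with 15.4 points. That between 5p arms and other miRNAs missed it with the blank median as threshold, at 10.6 points, with 2 times the blank median, at 2.51 points, and within the bright and dim spike sets, at 13.8 and 8.65 points, where 3 arrays cannot go below 0.25. With an array left out it was 10.1 to 12.9 points, where 5 arrays cannot go below 0.0625. Weighted to the share of G, as above, it was -2.96 points, and -11.4 points at 2 times the blank median.

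Of the 35 named and tested members, 25 kept their sign in every setting run, and 10 did not. With an array left out, log2 differences lay between -0.22 and 0.10 for miR-6931-5p, -0.14 and 0.022 for miR-7082-5p, -0.50 and 0.14 for miR-7085-5p, -0.12 and 0.035 for miR-7047-5p, -0.029 and 0.25 for miR-6981-5p, -0.065 and 0.22 for miR-7044-5p, -0.59 and 0.0058 for miR-6922-5p, -0.20 and 0.27 for miR-6993-5p, -0.0014 and 0.22 for miR-6941-5p, and -0.11 and 0.021 for miR-7008-5p. The miR-7082-5p difference was 0.065 with cyclic loess, 0.0078 with no normalization between arrays, and 0.0059 and 0.0058 in the authors' value table with pseudocounts of 1 and 16. That of miR-7044-5p was -0.047 with the spike split as a block, and that of miR-6993-5p -0.82 with the blank median subtracted and -0.0075 with array weights. The cause of these turns was not tested.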
